A study of Mus musculus with 18 samples.

Results

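The footprints of 9 genes for translation initiation and elongation factors were followed in mouse embryonic stem cells and in embryoid bodies. The genes were Eef1a1, Eef1a2, Eef2, Eif4e, Eif4ebp1, Eif4a1, Eif4a2, Eif4g2 and Pabpc1. They were taken by their Ensembl gene IDs, with no threshold on a measured value, and all 9 were found among the 51826 IDs of the count files. Ribosome profiling, which sequences the short mRNA fragments that ribosomes protect from nuclease, had been applied to E14, a mouse embryonic stem cell line, and to knockout (KO) lines of the same background. The 6 groups held 3 libraries each, described as biological triplicates: WT, Quaking KO and Sam68 KO cells at day 0, before differentiation, and the same lines at day 10 as embryoid bodies, which are aggregates that form derivatives of all germ layers. Quaking and Sam68 both belong to the STAR family, whose proteins bind RNA. The labels do not say how many clones each KO line comprises.

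In cap-dependent initiation, eIF4E binds the mRNA cap, the helicase eIF4A unwinds the leader, and the poly(A)-binding protein PABPC1 joins the mRNA's end to the cap complex. 4E-BP1, encoded by Eif4ebp1, binds eIF4E and holds it out of that complex until the kinase mTOR phosphorylates it. In elongation, eEF1A brings aminoacyl-tRNA to the ribosome and eEF2 moves the ribosome by a codon. Eef1a1, Eef2 and Pabpc1 belong to the TOP mRNAs, whose translation depends on mTOR. Eef1a2 encodes the eEF1A form known from neurons, heart and skeletal muscle.

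Libraries held 988210 to 10646768 counts. The labels' descriptions name a MIX for each, and the 3 mixes are taken here as pools. WT and Quaking KO stem cells made up the first, Sam68 KO stem cells with WT embryoid bodies the second, and embryoid bodies of both KO lines the third. Only Quaking KO against WT stem cells and Sam68 KO against Quaking KO embryoid bodies compare libraries of the same pool, and everywhere else pool and group cannot be told apart. The 10 most counted features took 7.01% to 21.3% of the counts at day 0 and 24.6% to 70.4% at day 10, and over 40% in 3 libraries: WT day 10 replicate 3 and Sam68 KO day 10 replicates 2 and 3. Levels are given as CPM, a count scaled to a common library size by TMM, which sets library sizes on the bulk of features rather than on the most abundant ones. The 9 genes together took 0.609% to 0.780% of a library at day 0 and 0.0979% to 0.330% at day 10. Their summed level was 5720 ± 276 CPM (SD, n = 3) in WT at day 0 and 2778 ± 137 CPM (SD, n = 3) in WT at day 10. All 9 passed the filter on low counts. A CPM value is not divided by gene length, so each gene is compared with itself across groups.

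Footprints of most of these factors were lower in embryoid bodies than in stem cells. Of the 9 genes, 6 fell and none rose in WT, where 65.0% of all tested features changed, 30.1% lower and 34.9% higher. In Quaking KO, 6 fell and 2 rose, against 64.1% of all features changed, 29.4% lower and 34.7% higher. In Sam68 KO, 6 fell and none rose, against 65.3% changed, 30.5% lower and 34.9% higher. Changed means an adjusted p below 0.05 in edgeR's quasi-likelihood test with Benjamini-Hochberg adjustment over 13701 features, and every adjusted p given for a single gene is from that fit. Eef1a1, Eef2, Eif4e, Eif4ebp1 and Pabpc1 fell in all 3 lines. In an additive model of line and day with the pool as a block, Eef1a1, Eef2, Eif4e and Pabpc1 were the 4 genes lower at day 10. Eif4ebp1 was at 0.051 (adjusted p 0.911). That model gives the lines a common change with time and assumes the same KO effect on both days. For Eif4ebp1 the change with time differed between Quaking KO and WT by -1.02 without a pool term (adjusted p 0.00197). In that difference, too, pool and line cannot be told apart. The model cannot separate such a difference from pool for any gene. Its values therefore do not on their own decide whether Eif4ebp1 or the 4 other genes fell. The median log2 change of the 9 genes was -1.20 in WT, -1.03 in Quaking KO and -0.97 in Sam68 KO, beside 0.10, 0.11 and 0.11 over all features. In WT and Sam68 KO the share of the 9 genes that changed is close to the background, and in Quaking KO, where 8 of 9 changed, it is above it. The share that fell is above the background in all 3 lines. The genes were chosen with earlier results of these data known, so these shares describe the list and do not test it. A footprint count joins mRNA amount and ribosome occupancy, and in bulk samples fewer cells of a type and less RNA per cell cannot be told apart.

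**Figure D1:**
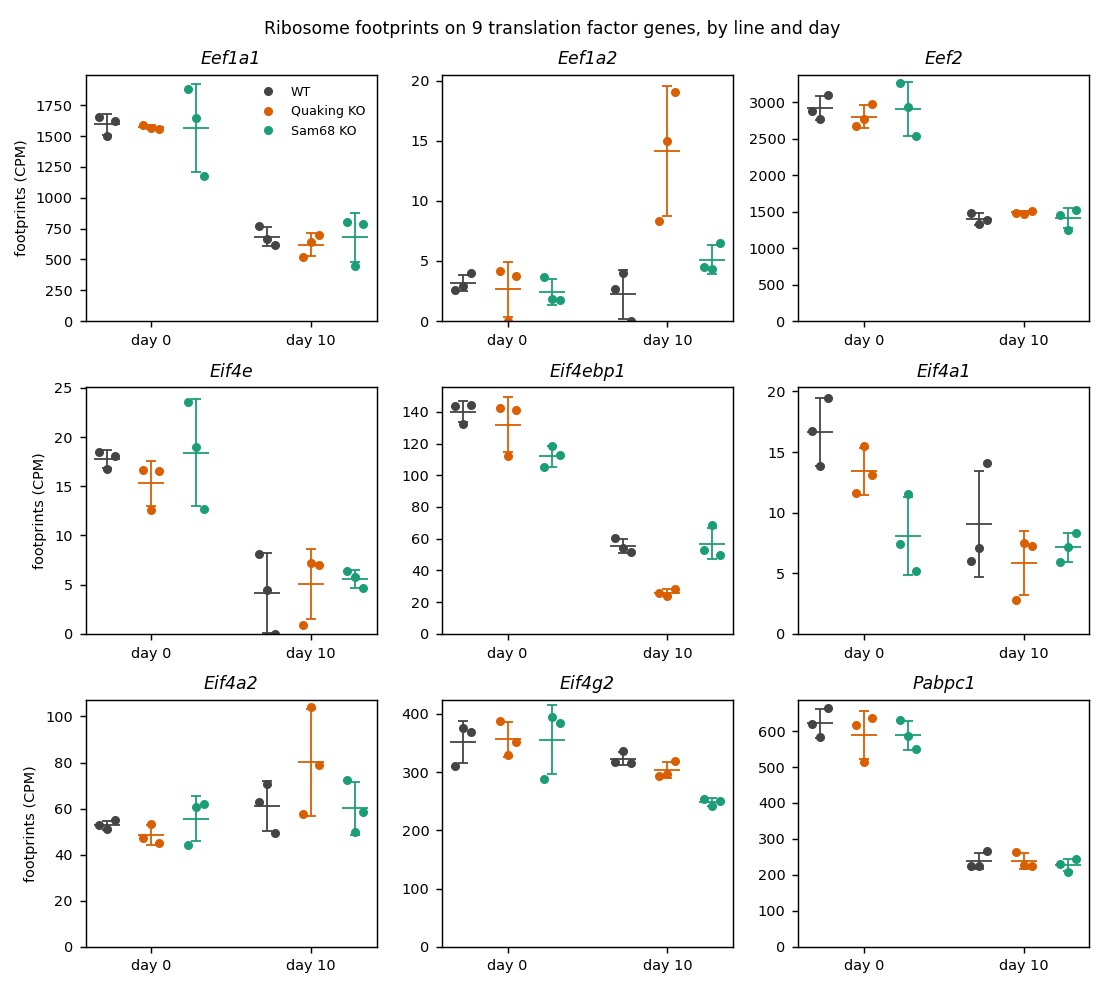
Level of each of the 9 genes in CPM in every library (points) with the mean ± SD of the 3 libraries (bars), by line and day, 1 panel per gene with its own axis. Eef1a1, Eef2, Eif4e, Eif4ebp1 and Pabpc1 are lower at day 10 than at day 0 in all 3 lines without overlap, and Eef1a2 is highest in Quaking KO at day 10.

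Among the elongation factors, Eef2 (ENSMUSG00000034994, chr10:81176631-81182509 in GRCm38.p6) encodes the translocase eEF2. In WT its level was 2887, 2774 and 3105 CPM at day 0 and 1482, 1329 and 1391 CPM at day 10. In Quaking KO it was 2670.4, 2765 and 2977 CPM at day 0 and 1488, 1472 and 1508.5 CPM at day 10. In Sam68 KO it was 3268, 2936 and 2533 CPM at day 0 and 1458, 1254 and 1523 CPM at day 10. Every day 10 library lay below every day 0 library. On the log2 scale the change was -1.06 in WT (SE 0.11, adjusted p 1.31e-08), -0.91 in Quaking KO (adjusted p 1.55e-07) and -1.04 in Sam68 KO (adjusted p 1.62e-08), a fall of 2.09-fold, 1.88-fold and 2.06-fold.

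Eef1a1 (ENSMUSG00000037742, chr9:78478453-78481724), the widely expressed eEF1A gene, moved by a similar amount. Its level in WT was 1656, 1502 and 1623 CPM at day 0 and 772, 663 and 618 CPM at day 10. The Quaking KO libraries held 1589, 1564 and 1557 CPM at day 0 and 517, 641 and 701 CPM at day 10. The Sam68 KO libraries held 1879, 1644 and 1174 CPM at day 0 and 803, 447 and 785 CPM at day 10. The days did not overlap in any line, and the spread was widest in Sam68 KO, with a coefficient of variation of 22.9% at day 0 and 29.6% at day 10. The log2 change was -1.22 in WT (adjusted p 9.27e-06), -1.34 in Quaking KO (adjusted p 2.77e-06) and -1.21 in Sam68 KO (adjusted p 9.98e-06). Eef1a1 has many processed pseudogenes, and how reads that match several places were counted is not given in the sources used here, so its absolute level is uncertain.

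Eef1a2 (ENSMUSG00000016349, chr2:181141758-181157015) had far fewer counts, from 0 to 68 per library. In WT its level was 2.61, 2.93 and 3.96 CPM at day 0 and 2.70, 3.99 and 0 CPM at day 10. Quaking KO values were 4.18, 0 and 3.74 CPM at day 0 and 8.35, 15.0 and 19.1 CPM at day 10, the last from 9, 58 and 68 counts. Sam68 KO values were 3.64, 1.81 and 1.77 CPM at day 0 and 4.53, 4.30 and 6.48 CPM at day 10. The days overlapped in WT and not in the KO lines. The library at 0 at day 10, WT replicate 3, was the shallowest after scaling, and a count of 0 there allows a level of up to 7.05 CPM; in Quaking KO day 0 replicate 2 a count of 0 allows up to 1.72 CPM. Eef1a2 rose in Quaking KO by 2.31 on the log2 scale (SE 0.53, adjusted p 0.000558), a 4.96-fold rise with a 95% interval of 2.32-fold to 10.6-fold. On the log2 scale the change was 1.04 in Sam68 KO (adjusted p 0.0925) and -0.09 in WT (adjusted p 0.895), with 95% intervals that reached from 0.953-fold to 4.44-fold and from 0.434-fold to 2.04-fold. The Sam68 KO value passed the threshold at an adjusted p of 0.043 without Sam68 KO day 0 replicate 1.

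Eif4e (ENSMUSG00000028156, chr3:138526191-138559696) encodes the cap-binding protein. In WT its level was 18.4, 16.8 and 18.1 CPM at day 0 and 8.10, 4.43 and 0 CPM at day 10. In Quaking KO it was 16.7, 12.6 and 16.5 CPM at day 0 and 0.928, 7.23 and 7.01 CPM at day 10. In Sam68 KO it was 23.5, 19.0 and 12.7 CPM at day 0 and 6.42, 5.73 and 4.63 CPM at day 10. All 9 stem cell libraries were above all 9 embryoid body libraries. The day 10 values rest on 0 to 54 counts, and the 0 in WT replicate 3 again allows up to 7.05 CPM. Eif4e fell in each line, with a log2 change of -1.60 in WT (SE 0.36, adjusted p 0.000501), -1.38 in Quaking KO (adjusted p 0.00305) and -1.64 in Sam68 KO (adjusted p 0.000412).

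Eif4e and Eef2 fell together in all 3 lines, and the promoter table held a start for each with matches to short motifs, so the stretches that carry them are shown. They are from RefSeq (GRCm38.p6), 5′ to 3′ on the gene's strand, and end at the base before the transcript's start. Capitals mark CACGTG, the E-box core that is the same on both strands and is bound by factors of the MYC and USF families, searched in the 250 bases before the start, and TATAA, searched on both strands in the 50 bases before the start. The stretches are chr10:81176561-81176630 (+) for Eef2 and chr3:138527030-138527267 (+) for Eif4e, the latter at the second of its annotated starts.
Eef2: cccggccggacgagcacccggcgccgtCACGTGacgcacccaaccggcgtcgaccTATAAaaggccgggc
Eif4e: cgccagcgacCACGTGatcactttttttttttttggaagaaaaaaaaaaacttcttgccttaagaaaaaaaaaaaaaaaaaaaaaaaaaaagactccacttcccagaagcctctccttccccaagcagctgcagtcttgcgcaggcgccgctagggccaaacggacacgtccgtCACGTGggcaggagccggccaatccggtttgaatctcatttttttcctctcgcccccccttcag
In Eef2, CACGTG begins at position -43 and TATAA at -15 from the start, and in Eif4e, CACGTG begins at -228 and at -64. CACGTG was present in 6.02% of all 32851 promoter windows of that length, at least 2 matches in 0.429%, and TATAA in 6.36%. The table held starts for 6 of the genes, of which Eef2, Eif4e and Eif4a1 (position -189) had a CACGTG match, Eif4e at its second start and not at its first. Eef1a1, Eef1a2 and Eif4a2 had neither motif in these windows. Of the genes with a CACGTG match, Eef2 and Eif4e fell in all 3 lines and Eif4a1 in 2. Of those without, Eef1a1 fell in all 3 lines, and Eef1a2 and Eif4a2 fell in 0. Whether the matches relate to the falls was not tested. A match describes the sequence only; binding was not measured. Eif4ebp1, Eif4g2 and Pabpc1 had no entry.

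Eif4ebp1 (ENSMUSG00000031490, chr8:27260327-27275656), which encodes the eIF4E inhibitor 4E-BP1, fell in every line and fell furthest in Quaking KO. In WT its level was 144, 132 and 144 CPM at day 0 and 60.3, 53.8 and 51.7 CPM at day 10. The Quaking KO libraries held 142, 112 and 141 CPM at day 0 and 26.0, 24.0 and 28.0 CPM at day 10. The Sam68 KO libraries held 105, 118 and 113 CPM at day 0 and 52.6, 68.3 and 50.0 CPM at day 10. The day 10 libraries of Quaking KO lay below those of both other lines, and WT and Sam68 KO overlapped. The log2 change was -2.35 in Quaking KO (SE 0.15, adjusted p 2.23e-12), a 5.08-fold fall. It was -1.32 in WT (adjusted p 2.08e-08) and -0.97 in Sam68 KO (adjusted p 1.88e-06). In order of level the groups were WT day 0, Quaking KO day 0, Sam68 KO day 0, Sam68 KO day 10, WT day 10 and Quaking KO day 10, and neighbours overlapped except between the days and between WT and Quaking KO at day 10.

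**Figure D2:**
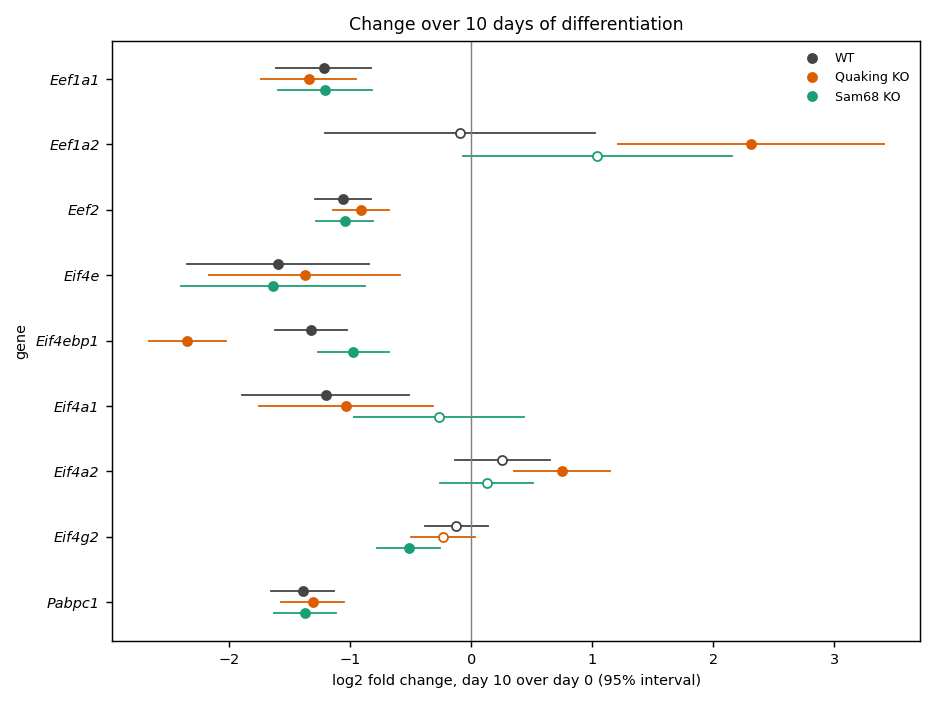
Log2 change from day 0 to day 10 of each of the 9 genes in WT, Quaking KO and Sam68 KO, with 95% intervals as lines and filled points where the adjusted p is below 0.05. Eif4ebp1 in Quaking KO lies at -2.35, apart from WT at -1.32 and Sam68 KO at -0.97, and Eef1a2 in Quaking KO is the highest point at 2.31.

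The helicase genes Eif4a1 and Eif4a2 encode near-identical proteins that work in the same complex, and their counts moved differently. The level of Eif4a1 (ENSMUSG00000059796, chr11:69666936-69672423) in WT was 16.7, 13.8 and 19.5 CPM at day 0 and 6.00, 7.09 and 14.1 CPM at day 10. Quaking KO values were 11.6, 15.5 and 13.1 CPM at day 0 and 2.78, 7.49 and 7.29 CPM at day 10. Sam68 KO values were 7.45, 11.5 and 5.17 CPM at day 0 and 5.91, 7.17 and 8.33 CPM at day 10. The days overlapped in Sam68 KO, where day 0 was already low, and in WT through day 10 replicate 3, which had 6 counts. Eif4a1 fell in WT, with a log2 change of -1.20 (SE 0.34, adjusted p 0.00312), and in Quaking KO, with -1.03 (adjusted p 0.0125). The log2 change in Sam68 KO was -0.27 (adjusted p 0.5; 95% interval 0.511-fold to 1.35-fold). With every library thinned to the smallest total, the WT value was -0.45 (adjusted p 0.452).

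Eif4a2 (ENSMUSG00000022884, chr16:23107468-23114132) was the factor besides Eef1a2 that rose in a line. Its level in WT was 52.7, 51.0 and 54.9 CPM at day 0 and 62.7, 70.9 and 49.3 CPM at day 10. In Quaking KO it was 47.4, 53.4 and 44.9 CPM at day 0 and 57.5, 104 and 78.8 CPM at day 10. In Sam68 KO it was 44.3, 60.5 and 62.1 CPM at day 0 and 72.3, 49.7 and 58.3 CPM at day 10. The days overlapped in WT and Sam68 KO, and in Quaking KO all day 10 libraries were above day 0. Eif4a2 rose in Quaking KO by 0.75 on the log2 scale (SE 0.19, adjusted p 0.0015), or 1.69-fold; with no filter on low counts the value was 0.50 (adjusted p 0.0594). On the log2 scale the change was 0.26 in WT (adjusted p 0.241) and 0.13 in Sam68 KO (adjusted p 0.564). Eif4a1, Eif4a2 and Eef2 carry small nucleolar RNA genes in their introns and Eif4a1 has processed pseudogenes, so without the counting rules their levels are uncertain.

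Eif4g2 (ENSMUSG00000005610, chr7:111067985-111083030) encodes DAP5, an eIF4G-like scaffold that lacks the eIF4E-binding site and takes part in cap-dependent initiation without eIF4E. Its level in WT was 311, 375 and 369.6 CPM at day 0 and 318, 337 and 315 CPM at day 10. The Quaking KO libraries held 388, 329 and 351 CPM at day 0 and 294, 297 and 318 CPM at day 10. The Sam68 KO libraries held 288, 395 and 385 CPM at day 0 and 254, 241 and 251 CPM at day 10. The days overlapped in WT and not in either KO line. Eif4g2 fell in Sam68 KO by 0.52 on the log2 scale (SE 0.13, adjusted p 0.00103), a 1.43-fold fall. The log2 change was -0.12 in WT (adjusted p 0.411) and -0.23 in Quaking KO (adjusted p 0.114). The Quaking KO value passed the threshold with no filter on low counts (adjusted p 0.0471) and without Quaking KO day 0 replicate 2 (adjusted p 0.0488). For WT the 95% interval, 0.767-fold to 1.10-fold, holds no fall as large as that of Eef2 or Pabpc1.

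Pabpc1 (ENSMUSG00000022283, chr15:36595658-36609581), which encodes the cytoplasmic poly(A)-binding protein, fell by nearly the same amount in each line. Its level in WT was 620.2, 582 and 663 CPM at day 0 and 225, 226 and 265 CPM at day 10. Quaking KO values were 616, 513 and 638 CPM at day 0 and 263, 227 and 223 CPM at day 10. Sam68 KO values were 631, 585 and 550.5 CPM at day 0 and 229, 209 and 244 CPM at day 10. Every day 10 library lay below every day 0 library. Pabpc1 also has processed pseudogenes, so its absolute level is uncertain. On the log2 scale the change was -1.39 in WT (SE 0.13, adjusted p 8.11e-10), -1.31 in Quaking KO (adjusted p 2.08e-09) and -1.37 in Sam68 KO (adjusted p 8.46e-10).

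The groups of the 2 days did not overlap for 5 of the 9 genes in WT, 9 in Quaking KO and 7 in Sam68 KO, beside 67.0%, 65.2% and 69.9% of all features. Leaving out the 3 libraries in which a few features took over 40% of the counts left 6 of 9 genes changed in WT, which lost day 10 replicate 3. Quaking KO lost no library and kept 8. Sam68 KO at day 10 then rested on replicate 1 alone. There the log2 change was -0.95 for Eef1a1, -0.98 for Eef2, -1.50 for Eif4e and -1.07 for Eif4ebp1. It was -0.47 for Eif4g2 and -1.34 for Pabpc1. The 3 changes share no libraries with each other, but each sets libraries of one pool against another.

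In stem cells none of the 9 genes changed in either KO line. In Quaking KO against WT at day 0, where 0.365% of all features changed, no gene passed the adjusted threshold in edgeR or DESeq2, and none had an unadjusted p below 0.05. The log2 difference of Eef2 was -0.06 with a 95% interval of -0.29 to 0.17, and that of Eif4ebp1 was -0.08 with an interval of -0.36 to 0.20. For Eef1a2 the interval was wide, from -1.24 to 0.99.

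In Sam68 KO against WT at day 0, where 1.26% of all features changed, 0 of 9 genes changed in edgeR and in DESeq2, and 2 had an unadjusted p below 0.05 in edgeR. The larger of the 2 was Eif4a1, at 8.05 ± 3.23 CPM (SD, n = 3) in Sam68 KO and 16.7 ± 2.83 CPM (SD, n = 3) in WT. Every Sam68 KO library was below every WT library, with a log2 difference of -1.03 (SE 0.29, adjusted p 0.0959). The adjusted p was 0.0358 with no filter on low counts, 0.0482 without the 3 libraries dominated by a few features and 0.0408 without Sam68 KO day 0 replicate 2. Eif4ebp1 differed by -0.32 (adjusted p 0.391). Sam68 KO against Quaking KO at day 0, which shares the Sam68 KO libraries with that comparison, had 0 of 9 genes changed in edgeR and in DESeq2 beside 3.31% of all features. In it 1 gene, Eif4a1, had an unadjusted p below 0.05, with a log2 difference of -0.70 (adjusted p 0.279). At day 0 the groups did not overlap for 1 gene in Quaking KO against WT, 2 in Sam68 KO against WT and 1 in Sam68 KO against Quaking KO, beside 19.0%, 21.7% and 24.8% of all features.

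In embryoid bodies Quaking KO stood apart in Eif4ebp1 and Eef1a2. In Quaking KO against WT at day 10, where 23.9% of all features changed, 2 of 9 genes changed, which is close to that share. Eif4ebp1 was lower, at 26.0 ± 2.01 CPM (SD, n = 3) against 55.3 ± 4.47 CPM (SD, n = 3), a log2 difference of -1.11 (SE 0.16, adjusted p 8.96e-06) or 2.16-fold. Its value lay between -1.17 and -1.02 in the other fits without the pool term, with adjusted p of at most 0.00275. Eef1a2 was higher, at 14.1 ± 5.41 CPM (SD, n = 3) against 2.23 ± 2.03 CPM (SD, n = 3), a log2 difference of 2.27 (SE 0.54, adjusted p 0.00297) or 4.84-fold. In the other fits without the pool term that could test it, the value of Eef1a2 lay between 2.02 and 2.62 with adjusted p of at most 0.0259. Without the 3 dominated libraries the log2 differences were -1.15 for Eif4ebp1 and 2.15 for Eef1a2. Quaking KO and WT at day 10 lie in different pools, so for both genes pool and line cannot be told apart here. The additive model with a pool block takes this difference from day 0 alone, and there it was -0.08 for Eif4ebp1 and -0.13 for Eef1a2. The other 7 genes did not pass the threshold, and Eif4a2 did so without Quaking KO day 10 replicate 1 (adjusted p 0.0399). Their smallest interval was that of Eef2, from -0.14 to 0.32, and the widest that of Eif4e, from -0.84 to 0.88.

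Sam68 KO against Quaking KO at day 10 lies within a pool and shares the Quaking KO libraries with the comparison above. There 2 of 9 genes changed, beside 23.7% of all features, and they were Eif4ebp1 and Eef1a2. Eif4ebp1 was at 57.0 ± 9.92 CPM (SD, n = 3) in Sam68 KO, 2.19-fold above Quaking KO, with a log2 difference of 1.13 (SE 0.15, adjusted p 5.39e-06). Without the dominated libraries, which leaves 1 Sam68 KO library, that difference was 1.03 (adjusted p 0.000235), where the lone library is assumed to vary like the other groups. Eef1a2 was at 5.10 ± 1.20 CPM (SD, n = 3) in Sam68 KO, 3.00-fold below Quaking KO, with a log2 difference of -1.59 (SE 0.51, adjusted p 0.0265). The Eef1a2 call did not hold without the dominated libraries (adjusted p 0.0779), without Quaking KO day 10 replicate 2 (0.0588) or 3 (0.12), or without Sam68 KO day 10 replicate 1 (0.098) or 2 (0.0876). At an unadjusted p below 0.05, 4 genes differed, Eif4a2 and Eif4g2 in addition. Eif4g2 differed by -0.29 (adjusted p 0.109), and passed with RLE scaling (adjusted p 0.0273) and in DESeq2 (adjusted p 0.0142). Eif4a2 differed by -0.42 (adjusted p 0.115), and passed without Quaking KO day 10 replicate 1 (adjusted p 0.0232).

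In Sam68 KO against WT at day 10, 0 of 9 genes changed in edgeR and in DESeq2, beside 0.175% of all features, and 1 had an unadjusted p below 0.05. That gene was Eif4g2, at 249 ± 6.71 CPM (SD, n = 3) against 323 ± 11.8 CPM (SD, n = 3), with no overlap and a log2 difference of -0.38 (SE 0.13, adjusted p 0.395). Eif4ebp1 differed by 0.03 with a 95% interval of -0.28 to 0.33. Over the comparisons at day 10 the groups did not overlap for 2 genes in Quaking KO against WT, 2 in Sam68 KO against WT and 3 in Sam68 KO against Quaking KO, beside 31.2%, 11.4% and 33.7% of all features.

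**Figure D3:**
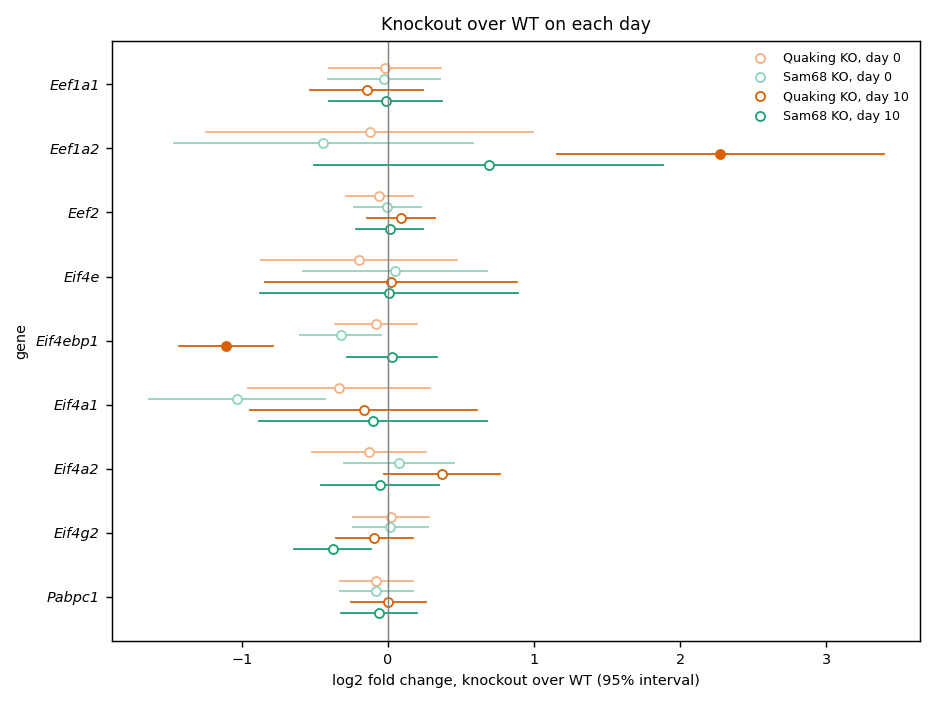
Log2 difference of each KO line from WT for each of the 9 genes on each day, with 95% intervals as lines and filled points where the adjusted p is below 0.05. No point is filled at day 0, and at day 10 the filled points are Eif4ebp1 (-1.11) and Eef1a2 (2.27) in Quaking KO.

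Whether the change with differentiation differed between lines was tested as an interaction of line and day. For Quaking KO, 2 of 9 genes differed from WT, beside 8.88% of all features. The log2 change of Eif4ebp1 was lower by 1.02 in Quaking KO than in WT, with an interaction of -1.02 (SE 0.21, adjusted p 0.00197). The interaction of Eef1a2 was 2.40 (SE 0.76, adjusted p 0.0487), and that call was lost when any of 9 single libraries was left out, with adjusted p up to 0.126. The libraries without which it held were WT day 10 replicate 3 and replicate 1 of Quaking KO on each day. For Sam68 KO the interaction was called for 0 of 9 genes in edgeR and in DESeq2, beside 0.431% of all features, with 1 gene at an unadjusted p below 0.05, Eif4g2 at -0.40 (adjusted p 0.508). The Sam68 KO interaction of Eif4a1, whose fall with time was called in both other lines, was 0.93 with a 95% interval of -0.05 to 1.92. The interactions of Eef2 and Pabpc1 were at most 0.15 in size in both KO lines, with intervals that stayed between -0.34 and 0.47.

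The balance within pairs of related factors was followed as the log2 ratio of their counts in a library, which needs no scaling between libraries. The level of a ratio depends on both genes' lengths and on read mapping, so the ratios were compared between groups and not read as amounts. Eef1a2 over Eef1a1 was -8.97 ± 0.30 (SD, n = 3) in WT at day 0 and -8.17 ± 0.85 (SD, n = 3) at day 10. In Quaking KO it was -9.86 ± 2.21 (SD, n = 3) at day 0 and -5.49 ± 0.35 (SD, n = 3) at day 10. In Sam68 KO it was -9.36 ± 0.41 (SD, n = 3) at day 0 and -6.96 ± 0.43 (SD, n = 3) at day 10. The ratio was higher at day 10 by 2.52 on the log2 scale over the 3 lines, or 5.74-fold (two-sided exact permutation within lines, p 0.00075; 0.0225 adjusted over 30 ratio tests). Within lines the difference was 4.37 in Quaking KO and 2.40 in Sam68 KO, each with the smallest exact p that 3 against 3 libraries can give, 0.1, and 0.80 in WT (exact p 0.3). The 2 libraries with an Eef1a2 count of 0 enter with a pseudocount of 0.5, which puts Quaking KO day 0 replicate 2 at -12.4, below the -8.52 and -8.64 of the other replicates. Without that library the Quaking KO difference was 3.09, or 8.52-fold in place of 20.6-fold, and it was 5.04 without replicate 1 and 4.98 without replicate 3 of that group.

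The log2 ratio of Eif4a2 over Eif4a1 was 1.67 ± 0.19 (SD, n = 3) in WT at day 0 and 2.80 ± 0.93 (SD, n = 3) at day 10. In Quaking KO it was 1.85 ± 0.14 (SD, n = 3) at day 0 and 3.78 ± 0.37 (SD, n = 3) at day 10. In Sam68 KO it was 2.84 ± 0.64 (SD, n = 3) at day 0 and 3.03 ± 0.49 (SD, n = 3) at day 10. The difference between the days over the lines was 1.08 (exact permutation p 0.00475), which did not pass after adjustment over the 30 tests (0.07125). At day 0 the ratio was above WT in all 3 Sam68 KO libraries, by 1.16 on the log2 scale (exact p 0.1, the smallest possible). Eif4ebp1 over Eif4e, the inhibitor over its target, differed between the days by 0.40 over the lines (exact permutation p 0.33875). In WT that ratio was 2.98 ± 0.02 (SD, n = 3) at day 0 and 3.98 ± 1.35 (SD, n = 3) at day 10. In Quaking KO it was 3.09 ± 0.02 (SD, n = 3) and 2.65 ± 1.39 (SD, n = 3). In Sam68 KO it was 2.64 ± 0.50 (SD, n = 3) and 3.28 ± 0.25 (SD, n = 3), a difference of 0.64 (exact permutation p 0.2). The day 10 values of WT and Quaking KO spread widely, and the highest rest on few Eif4e counts. They were 5.49 in WT replicate 3, with a count of 0, and 4.25 in Quaking KO replicate 1, with a count of 1. Without these libraries the difference between the days was 0.25 in place of 1.01 in WT. In Quaking KO it was -1.25 in place of -0.45.

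**Figure D4:**
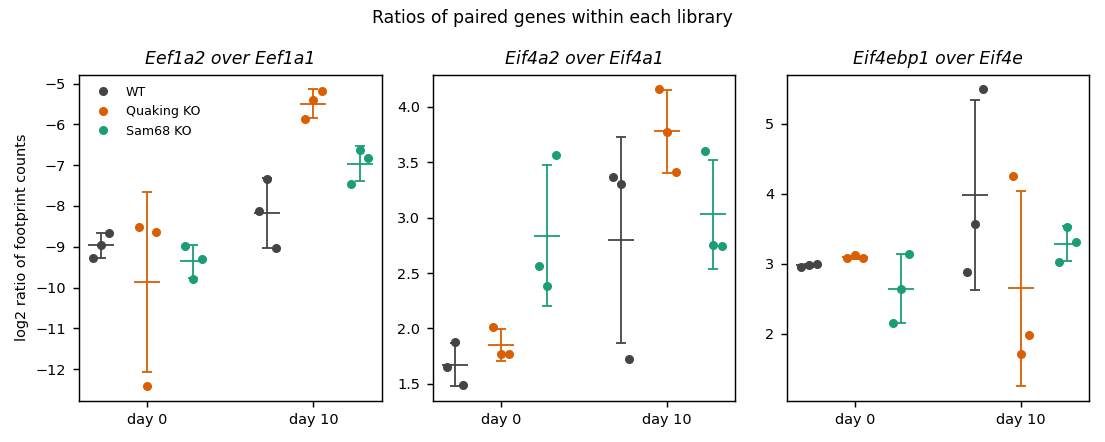
Log2 ratios of the counts of Eef1a2 over Eef1a1, Eif4a2 over Eif4a1 and Eif4ebp1 over Eif4e in every library (points) with mean ± SD (bars), by line and day. Eef1a2 over Eef1a1 is highest in Quaking KO at day 10, at -5.49 on average. Eif4ebp1 over Eif4e spreads widely at day 10 in WT and Quaking KO, where the highest points rest on Eif4e counts of 0 and 1.

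Over the 18 libraries the level of each gene was most like that of another member by Pearson's r of log2 CPM, as a description in which libraries share day and pool. Eef2 was most like Pabpc1, with r of 0.985 over the 18 libraries, 0.642 over the 9 libraries of day 0 and 0.381 over the 9 of day 10. Eef1a1 was most like Eef2, with 0.969 over all libraries, 0.825 at day 0 and 0.637 at day 10. Eif4e was most like Eef1a1, with 0.816 over all libraries, 0.804 at day 0 and 0.357 at day 10. For Eif4ebp1 the nearest gene, Pabpc1, had an r of 0.875 over all libraries, 0.579 at day 0 and -0.285 at day 10. Eef1a2 and Eif4a2, the genes that rose in Quaking KO, were nearest to each other, with 0.542 over all libraries, -0.439 at day 0 and 0.678 at day 10. For Eef1a1, Eef2, Eif4e, Eif4ebp1 and Pabpc1 the days did not overlap in any line. Their values over all libraries thus mainly hold the difference between the days. The days of Eef1a2 overlapped in WT, and those of Eif4a2 in WT and Sam68 KO.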

How the data were processed

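Cells were treated with cycloheximide (100 µg/mL, 15 minutes), lysates were digested with RNase, ribosomes were pelleted through sucrose, and RNA of 28 to 32 nt was kept, per the labels' protocols. The authors deposited raw counts per versioned Ensembl gene ID for each of 18 libraries; the tools were STAR 2.5.3a, Bowtie2 and bcl2fastq 2.17.1.14, with mm10 and GRCm38, per the submitters' processing notes. Not given in the sources used here were the counting program, annotation release, strand use and treatment of reads that match several places, so overlapping, antisense and near-identical genes are uncertain.

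Counts were tested with edgeR 4.0.16 (R 4.3.3): TMM scaling, filterByExpr by group (13701 of 33167 features with any count, holding at least 99.43% of each library's counts), and a quasi-likelihood fit with a mean for each of 6 groups over all 18 libraries. Contrasts were 9 pairs of groups and 2 interactions, two-sided, with Benjamini-Hochberg adjustment over all tested features and a threshold of 0.05. The common biological coefficient of variation was 0.229. Standard errors were the size of each log2 difference divided by the square root of its test's F value. The 95% intervals were built from them with the t distribution. Ratios were log2 of counts plus 0.5 and were tested by exact permutation. Scripts were tested on simulated data. Replicates all differed by more than sampling noise (chi-square over its degrees of freedom at least 4.82). A floor of 3 counts was 0.233 to 7.05 CPM; floors cover counting error only.

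Alternatives were RLE scaling, no filter, DESeq2 1.42.0, only the compared groups, the replicate number as a block, the pool as a block, thinning to the smallest total of 988210, omitting the 3 libraries whose 10 largest features exceeded 40% of counts, omitting each library in turn, and a ratio pseudocount of 1.

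The named genes were all 9 members, in every comparison. Members and lists were chosen with earlier results of these data known. The lists of other pathway genes and of cell type markers were written as symbols. The gene table used here held 49997 genes and 0 Ensembl IDs, so those lists, the identity of the cells, and the targeted genes Quaking and Sam68 were not analysed here, and genotypes rest on the labels. The 9 members were matched to that table and to RefSeq promoters by symbol; 9 had a locus and 6 a promoter entry.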

Additional observations from a re-analysis of the deposited data

Results flagged for a closer look

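The change of Eef1a2 from day 0 to day 10 differed between Quaking KO and WT, with an interaction of 2.40 on the log2 scale (edgeR, adjusted p 0.0487). All 3 Quaking KO libraries at day 10, at 8.35 to 19.1 CPM, were above all day 0 libraries of that line, while in WT the days overlapped. The call was lost in 11 of 18 other settings, with adjusted p up to 0.126. The adjusted p was 0.0465 without the 3 libraries dominated by a few features, and 0.0719 with the replicate number as a block.

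The change of Eif4ebp1 from day 0 to day 10 differed between Quaking KO and WT in the same test, with an interaction of -1.02 on the log2 scale (edgeR, adjusted p 0.00197). Both lines fell in all 3 libraries, to 24.0 to 28.0 CPM in Quaking KO and 51.7 to 60.3 CPM in WT. Without the 3 dominated libraries the interaction was -1.02 (adjusted p 0.00134). Both interactions set libraries of the first pool, which held both lines at day 0, against day 10 libraries in separate pools, so pool and line cannot be told apart at day 10.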

How the results depend on the processing

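Of 99 gene results, 26 were called. Apart from the pool block, 22 of these kept their call in every setting that could test them, which for Eef1a2 leaves out thinning. Of the 73 others, 6 gained a call in some such setting. With a pool block added to additive terms for line and day, 8 results that were called in 1 of the 2 fits changed sign. None of the 8 was called in both fits. That model has no value for interactions, assumes the same KO effect on both days, and takes Quaking KO against WT from day 0 alone and Sam68 KO against Quaking KO from day 10 alone. In it the change with time was 0.051 for Eif4ebp1 in all 3 lines (adjusted p 0.911). In Quaking KO it was -1.36 for Eef1a2 (adjusted p 0.26) and -0.37 for Eif4a2 (adjusted p 0.397). Its single value for both days for Eif4ebp1 was 1.05 in Sam68 KO against WT (adjusted p 0.00139) and 1.13 against Quaking KO (adjusted p 5.39e-06). At day 0 the main fit gave -0.32 and -0.24 for these differences and called neither. For Eef1a2 the single value was -0.13 in Quaking KO against WT and was not called, where the main fit gave 2.27 at day 10. Counts of called members under the pool block were 4 rather than 8 for Quaking KO over time, 1 rather than 0 for Sam68 KO against WT at day 0 and at day 10, 2 rather than 0 for Sam68 KO against Quaking KO at day 0, and 0 rather than 2 for Quaking KO against WT at day 10.

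Sam68 KO against WT at day 0 had 1 called member with no filter and 1 without the dominated libraries. With thinning, which left Eef1a2 untested, Quaking KO against WT at day 10, Sam68 KO against Quaking KO at day 10 and the Quaking KO interaction had 1 rather than 2. Sam68 KO against Quaking KO at day 10 had 1 without the dominated libraries, and the Quaking KO interaction had 1 with only the compared groups. Leaving out single libraries gave 6 to 6 called members in WT over time, 8 to 9 in Quaking KO and 6 to 7 in Sam68 KO; at day 10, 2 to 3 in Quaking KO against WT and 1 to 3 in Sam68 KO against Quaking KO; 0 to 1 in Sam68 KO against WT at day 0; and 1 to 2 for the Quaking KO interaction. The cause of these shifts was not tested.

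Replicate numbers did not pair the samples (correlations of deviations from -0.183 to 0.442, not all above 0.1 in any comparison). With the replicate number as a block, the Quaking KO interaction had 1 called member, since Eef1a2 had an adjusted p of 0.0719, and no other count of called members changed. With RLE scaling the share of called features that were higher was 63.0% rather than 76.9% in Sam68 KO against Quaking KO at day 0 and 44.5% rather than 55.1% at day 10. Over all features, thinning called 18 rather than 50 in Quaking KO against WT at day 0, and DESeq2 called 74 rather than 24 in Sam68 KO against WT at day 10. Depth limited Eef1a2, Eif4e and Eif4a1, which had under 10 counts in some day 10 libraries.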
